A study of Mus musculus with 6 samples.

Results

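The genes described here are 45 ligands, receptors, antagonists, SMADs and target genes of the bone morphogenetic protein (BMP) and activin branches of TGF-beta signalling, taken from a list of names among the 49671 genes of the deposited tables. All 45 were found by symbol. RNA was sequenced in 6 libraries of Podoplanin-positive cells sorted from orthotopic FC1199 pancreatic tumours, which had grown for 4 weeks in mice injected at 8 weeks of age and collected at 12 weeks. All hosts were C57BL/6J mice with both the Rosa-mTmG reporter and Fabp4-Cre, so that cells in which the Fabp4 promoter had been active, and their descendants, were GFP-positive and other host cells were Tomato-positive. The GFP fraction (3 libraries) is labelled as stellate cell-derived cancer-associated fibroblasts (CAFs) and the Tomato fraction (3 libraries) as CAFs of non-stellate origin. The Fabp4 promoter is also known to be active in adipocytes, macrophages and some endothelium, and FC1199 is a single mouse cancer line. Whether the 3 libraries of a fraction stand for 3 animals is not stated in the labels, so p-values here refer to the spread among libraries, which may be technical.

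BMPs, activins and TGF-betas are secreted dimers. They bind a type II receptor kinase, which phosphorylates a type I receptor kinase, which in turn phosphorylates receptor-regulated SMAD proteins. SMAD1, SMAD5 and the product of Smad9 serve mainly the BMP branch and SMAD2 and SMAD3 the activin and TGF-beta branch, and both use the common partner SMAD4. Extracellular antagonists trap the ligands, and inhibitory SMADs, the pseudoreceptor BAMBI, SKIL and PMEPA1 damp the signal from within the cell. In the pancreas TGF-beta and activin are known to promote the activated, matrix-producing state of stellate cells and fibroblasts.

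Total counts per library ran from 33378377 to 42154933. Counts were compared by the quasi-likelihood test of edgeR, with p-values adjusted over 15608 genes and a threshold of 0.05. Log2 fold changes are GFP over Tomato, and CPM are depth-scaled counts with TMM factors applied. All 11 fibroblast markers listed were detected in both fractions, and 6 were higher in GFP while 5 did not pass. They summed to between 129836 and 144520 CPM in GFP and between 63566 and 96598 CPM in Tomato. Most of each sum lay in the collagen genes Col1a1, Col1a2 and Col3a1. Their means were 33973, 20533 and 67576 CPM in GFP and 13788, 10689 and 41742 CPM in Tomato. Markers of other cells also differed, with all 12 mesothelial genes lower in GFP (62.7 to 152 CPM in sum, against 1943 to 2169 CPM in Tomato) and all 13 macrophage and monocyte genes lower (151 to 240.2 CPM, against 1077 to 2693 CPM in Tomato). All 6 lymphatic endothelial genes tested were higher in GFP (347 to 529 CPM in sum, against 51.0 to 102 CPM in Tomato). The seventh, Ccl21a, was at 0 in every library, and of 12 blood and pan-endothelial genes 7 were higher and 1, Esam, lower (145 to 218 CPM, against 99.6 to 123 CPM in Tomato). Of 10 epithelial genes 5 were lower, none was higher and 5 did not pass (96.6 to 118 CPM, against 363 to 436 CPM in Tomato). Most of that Tomato sum lay in Krt8 and Krt18, with means of 171 and 133 CPM, against 14.5 and 16.4 CPM in GFP. The next highest, Sox9, averaged 52.6 CPM in GFP and 49.7 CPM in Tomato. Of 9 pericyte and smooth muscle genes 3 (Mcam, Abcc9 and Notch3) were higher and 1 (Kcnj8) lower (144 to 223 CPM, against 159.6 to 271 CPM in Tomato). Tomato replicates 1 and 3 differed most within the fraction, with a chi-square per degree of freedom of 120.0. Tomato replicates 2 and 3 gave 51.9 and replicates 1 and 2 gave 28.2, while pairs of GFP libraries gave 28.1 to 39.3. Tomato replicate 3 had the lowest CPM of the Tomato libraries for 27 of 44 pathway genes tested. The same count was not made over all genes, so it is not shown to be particular to the pathway genes.

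Of the 45 pathway genes 44 were tested, and 17 (38.6%) passed: 12 were higher in GFP and 5 lower. Across all genes 28.9% passed, 13.1% as higher and 15.7% as lower in GFP. The median log2 fold change was 0.27 over the pathway genes tested and 0.00 over all genes. All 3 GFP libraries lay above all 3 Tomato libraries for 20 pathway genes (23.4% of all genes did so) and below them for 7 (25.2% of all genes). The higher genes were Bmp2, Gdf6, Inhbb, Tgfbr1, Acvr1, Tgfbr2, Bmpr2, Fstl1, Smad1, Smad4, Smad7 and Pmepa1, with log2 fold changes from 0.28 to 0.71. The lower genes were Bmp4, Bmp7, Bambi, Id1 and Id2.

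Of the 17 calls, those of Bmp4, Bmp7, Id1 and Pmepa1 were made in all 18 alternatives. Without GFP replicate 1, 2 pathway genes were higher and 3 lower. Without GFP replicate 2 they were 3 and 4, and without Tomato replicate 2 they were 3 and 3. Without GFP replicate 3 they were 5 and 3, and without Tomato replicate 1 they were 14 and 3. Without Tomato replicate 3, 9 were higher and 5 lower. The counts over all genes moved as well, to between 833 and 2392 higher and between 1380 and 2793 lower. Without GFP replicate 1 they were 920 and 1380 of 16027 genes tested, against 2049 and 2456 of 15608 with all 6 libraries. Scaled by library size alone, the pathway counts were 6 and 6. That scaling shifted the median over all genes to -0.16 (log2) and the median over the pathway genes to 0.10. With it 22.7% of the calls over all genes were higher in GFP, against 45.5% with TMM. Once length and GC content were corrected for, 8 pathway genes were higher and 3 lower, where 1512 and 2151 of all genes were. The median over the pathway genes was then 0.158 (0.155 when blocked), and over all genes -0.003. Blocked on replicate number, 20 were higher and 5 lower: the 17 calls were kept and Gdf10, Inhba, Acvrl1, Acvr2a, Tgfbr3, Fstl3, Nbl1 and Skil were added as higher. Calls over all 15608 genes rose too in the blocked fit, to 3137 higher and 3256 lower.

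**Figure D1:**
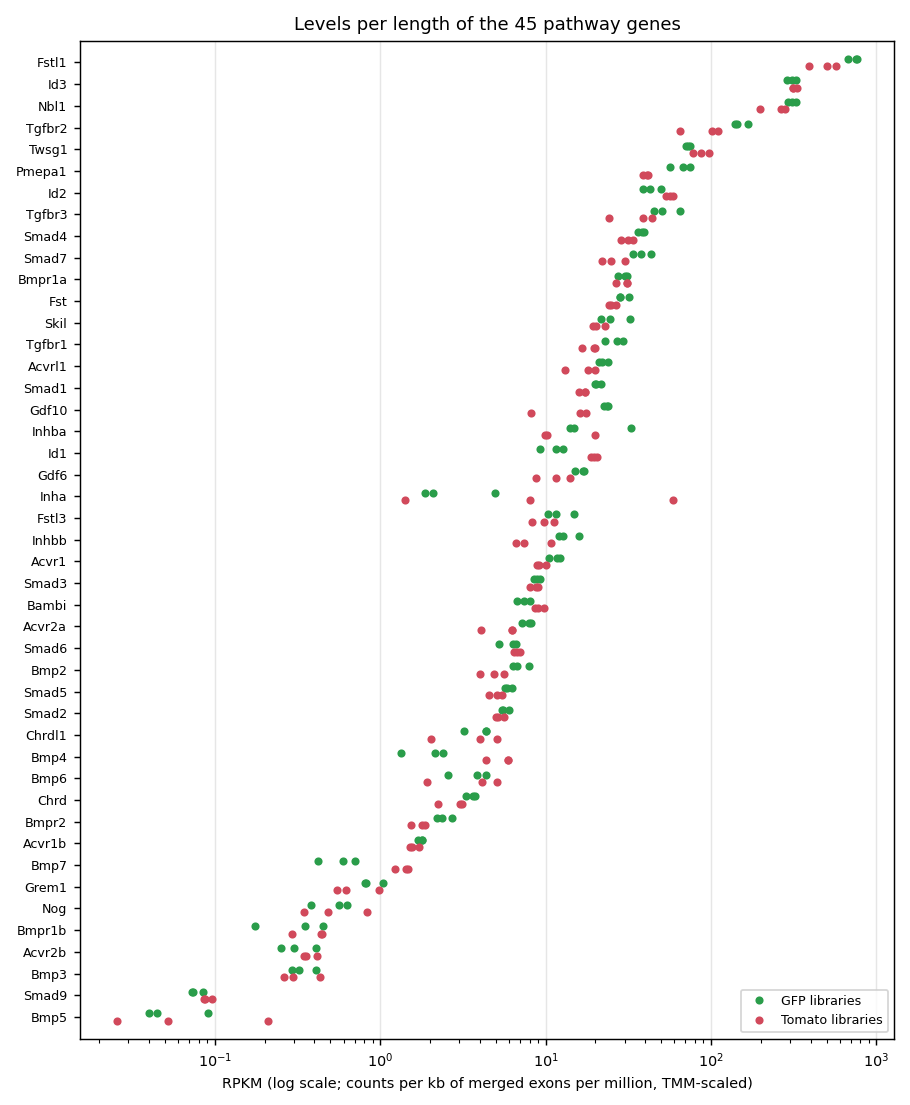
Levels of the 45 pathway genes per length (RPKM, log axis), with 3 GFP and 3 Tomato libraries as points for each gene, ordered by the mean of all 6 libraries. Fstl1, Id3 and Nbl1 were above 100 RPKM in both fractions on average, and 8 genes were below 1 RPKM.

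Levels of different genes were compared per length, as CPM per kilobase of merged exons (RPKM). Fstl1 was highest, with 735 ± 49.5 RPKM in GFP and 488 ± 89.4 RPKM in Tomato (SD, n = 3 each). Id3 followed with 307 ± 19.4 RPKM in GFP and 319 ± 10.3 RPKM in Tomato, and Nbl1 with 309.9 ± 18.3 RPKM in GFP and 247 ± 43.9 RPKM in Tomato. Id3 and Nbl1 did not differ from each other beyond their spread in GFP. Bmp3, Bmp5, Bmp7, Bmpr1b, Acvr2b, Grem1, Nog and Smad9 averaged less than 1 RPKM over the 6 libraries. Bmp5, with 4 to 31 reads per library, was the only pathway gene not tested. Where exons of genes on opposite strands overlap, the strand-blind counts used here can miss reads. Exons of Fstl3 overlap those of Prss57 over 1157 bases, and the strand-blind count of Fstl3 was 0.309 times the sum of its strand-specific counts, so its level may be understated. For Bmp5, which overlaps an antisense gene, that quotient was 0.535, for Chrd 0.928, for Acvr2a 0.931 and for each other pathway gene at least 0.984.

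Among the BMP ligand genes, Bmp4 and Bmp7 were lower in GFP and Bmp2 and Gdf6 were higher. Bmp4 (chromosome 14, 46383520 to 46390669 in GRCm38), a ligand of developing mesoderm and of the mature stroma, had 3.02, 5.40 and 4.85 CPM in GFP and 13.4, 13.3 and 9.83 CPM in Tomato. Every GFP library was below every Tomato library, and the log2 fold change was -1.46 ± 0.23 (SE, adjusted p = 0.00281). Bmp7 (chromosome 2, 172868012 to 172940321), an epithelial and kidney ligand, had 1.70, 2.84 and 2.40 CPM in GFP and 5.74, 5.95 and 4.91 CPM in Tomato. It too was lower without overlap (-1.26 ± 0.22, adjusted p = 0.00427). The 2 genes kept the call without each library in turn, with adjusted p of up to 0.0161 for Bmp4 and 0.0235 for Bmp7. All 12 mesothelial markers and 5 of 10 epithelial markers, among them the keratin genes Krt8 and Krt18, were also lower in GFP. The other 5 epithelial markers did not pass. Their part in these results was not tested, and in bulk samples fewer cells of a type and less RNA per cell cannot be told apart.

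Bmp2 (chromosome 2, 133552159 to 133562885), a ligand close in sequence to that of Bmp4, had 28.2, 23.9 and 22.5 CPM in GFP and 19.8, 17.3 and 14.2 CPM in Tomato. It went the opposite way to Bmp4, with all GFP libraries above all Tomato libraries (0.54 ± 0.14, adjusted p = 0.0262). Gdf6, a BMP family ligand of joints and skeleton, had 53.2, 59.8 and 60.1 CPM in GFP and 40.8, 49.6 and 30.7 CPM in Tomato. Its fractions did not overlap, but the highest Tomato library came close to the lowest GFP library (0.51 ± 0.16, adjusted p = 0.0434). Gdf10, also known as BMP3B, had 123, 124 and 118 CPM in GFP and 91.7, 84.4 and 42.3 CPM in Tomato. Its GFP libraries were close together and its Tomato libraries wide apart, and it did not pass (0.74 ± 0.26, adjusted p = 0.0731) although its log2 fold change was above that of each pathway gene called higher. Blocked on replicate number, Gdf10 passed (0.81, adjusted p = 0.019), as it did by DESeq2 (adjusted p = 0.00981) and by limma-voom (0.0452). It also passed without Tomato replicate 3 (0.46, adjusted p = 0.00602) and without Tomato replicate 1 (0.93, adjusted p = 0.0454), while other single omissions gave adjusted p of up to 0.135. Bmp6, a ligand made by endothelium among other cells, had 14.9, 16.9 and 10.01 CPM in GFP and 19.9, 16.1 and 7.52 CPM in Tomato and did not pass (-0.06, adjusted p = 0.915). Within each fraction its replicate 3 was the lowest. Bmp3 averaged 2.53 CPM in GFP and 2.44 CPM in Tomato.

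Bmp2 was no longer called when GFP replicate 1 (adjusted p = 0.0958), GFP replicate 2 (0.0614) or Tomato replicate 2 (0.0792) was left out, nor under scaling by library size alone (0.0519). Of the single omissions, only that of Tomato replicate 2 left Gdf6 called (the others gave adjusted p of up to 0.113, without GFP replicate 2). Its call was also lost with upper quartile scaling (0.0529) and with library size alone (0.106).

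**Figure D2:**
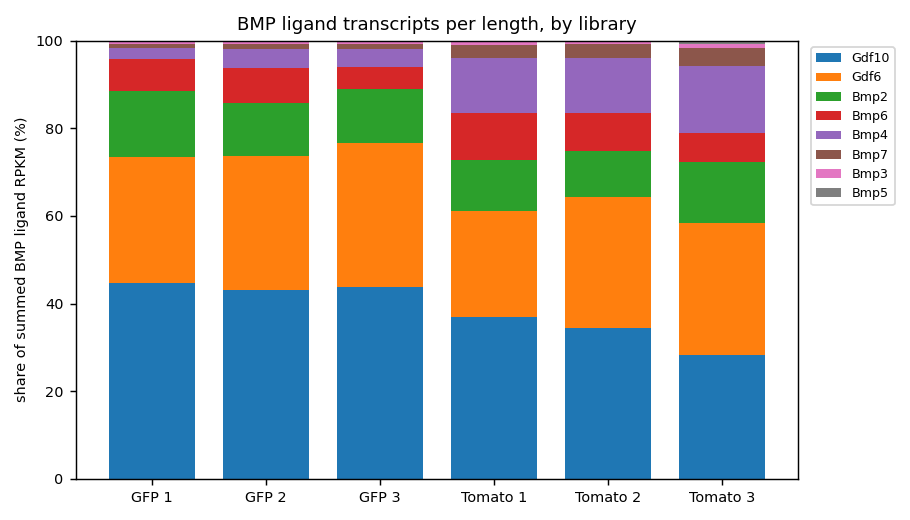
Share of each BMP ligand gene in the summed RPKM of the 8 ligand genes (percent), in each GFP and Tomato library. The Bmp4 segment is narrower in all 3 GFP libraries than in all 3 Tomato libraries.

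The ligand genes also differed in their mixture, given here as a description without a test. Their RPKM summed to 53.2 ± 1.82 in GFP and 41.2 ± 10.7 in Tomato (SD, n = 3 each). Gdf10 made up 43.9 ± 0.873% of that sum in GFP and 33.2 ± 4.50% in Tomato, and Gdf6 made up 30.7 ± 2.14% in GFP and 28.1 ± 3.38% in Tomato. Bmp4 made up 3.69 ± 0.991% in GFP and 13.4 ± 1.53% in Tomato. Bmp7 made up 1.08 ± 0.246% in GFP and 3.46 ± 0.680% in Tomato. The shares of Bmp2, Bmp3, Bmp5, Bmp6 and Gdf6 overlapped between the fractions.

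Activins are dimers of inhibin beta chains, and a beta chain joined to the inhibin alpha chain gives inhibin, which opposes activin. Of the 3 subunit genes 1 (33.3%), Inhbb, passed, as higher in GFP, where 28.9% of all genes passed in either direction. Inhbb (chromosome 1, 119415465 to 119422248), which encodes the beta B chain, had 68.1, 51.1 and 53.9 CPM in GFP and 46.0, 31.4 and 28.2 CPM in Tomato. It was higher in GFP without overlap (0.71 ± 0.19, adjusted p = 0.0287). Inhba (chromosome 13, 16011851 to 16031621), which encodes the beta A chain of activin A, had 89.7, 95.4 and 209.7 CPM in GFP and 63.7, 65.4 and 127 CPM in Tomato. Replicate 3 was the highest in both fractions by a wide margin, the fractions overlapped, and the gene did not pass without a block (0.62 ± 0.40, adjusted p = 0.277). Within each replicate number GFP was above Tomato by a similar amount, with log2 ratios of 0.49, 0.54 and 0.72. Blocked on replicate number, Inhba passed (0.59, adjusted p = 0.000842), as did Inhbb (0.73, adjusted p = 0.00053). The log2 fold change without GFP replicate 3 was 0.12 and without Tomato replicate 3 it was 1.02, neither of them past the threshold.

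Inha (chromosome 1, 75507077 to 75510366), which encodes the alpha chain, had 3.07, 2.75 and 7.30 CPM in GFP and 2.08, 11.8 and 87.5 CPM in Tomato. A single library, Tomato replicate 3, held most of its reads, with 3222 counts against 89 in Tomato replicate 1. The log2 fold change of -2.94 ± 1.28 did not pass (adjusted p = 0.134), and without Tomato replicate 3 it was -0.67 (adjusted p = 0.663). The summed CPM of macrophage and monocyte markers was 1077, 1801 and 2693 in Tomato replicates 1, 2 and 3, and their part in the Inha values was not tested. Of the single omissions, only that of Tomato replicate 1 left Inhbb called (the others gave adjusted p of up to 0.0941, without Tomato replicate 2). Its call was also lost with no filter on low counts (0.0621) and once length and GC content were corrected for (0.0724), though not when that correction was blocked on replicate number (0.56, adjusted p = 0.0013).

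**Figure D3:**
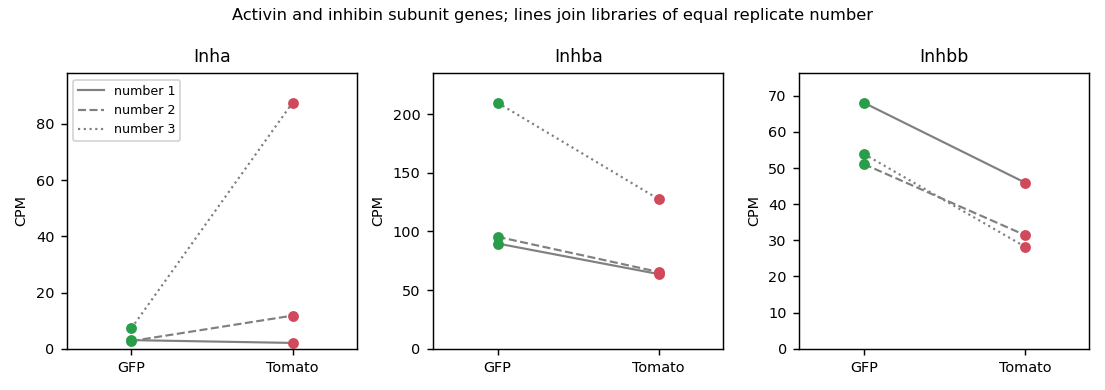
CPM of the inhibin alpha (Inha), beta A (Inhba) and beta B (Inhbb) genes in GFP and Tomato libraries, with lines joining libraries of equal replicate number. The 3 Inhba lines and the 3 Inhbb lines all run down to Tomato, and Inha is high in Tomato replicate 3 only.

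The promoters of 4 genes that carry these contrasts are shown: Bmp4, lower in GFP; Inhba, which varied by replicate number; Inhbb, higher in GFP; and Tgfbr2, the most abundant receptor gene and higher in GFP. Each line gives the 250 bases before the transcription start in the RefSeq annotation of GRCm38.p6, 5′ to 3′ on the strand of the gene. They lie at chr14:46390670-46390919 (minus strand), chr13:16011601-16011850 (plus), chr1:119422249-119422498 (minus) and chr9:116175364-116175613 (minus). Capitals mark matches on either strand. The strings searched were CAGAC, which contains the core sequence that SMADs bind; the GC-rich string GGAGCC, also bound by SMADs in BMP target genes; its relative GGCGCC; and TATAAA, the TATA box. No matches overlapped in these 4 windows.
Bmp4: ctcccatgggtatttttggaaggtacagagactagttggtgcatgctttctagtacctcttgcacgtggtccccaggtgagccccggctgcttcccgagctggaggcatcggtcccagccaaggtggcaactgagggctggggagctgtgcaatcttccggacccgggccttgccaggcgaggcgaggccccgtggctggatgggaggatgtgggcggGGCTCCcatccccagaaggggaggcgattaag
Inhba: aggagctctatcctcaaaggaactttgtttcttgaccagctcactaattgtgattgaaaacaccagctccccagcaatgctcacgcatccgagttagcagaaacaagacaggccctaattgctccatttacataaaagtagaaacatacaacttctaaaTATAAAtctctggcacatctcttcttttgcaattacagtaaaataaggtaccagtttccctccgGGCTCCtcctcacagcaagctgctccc
Inhbb: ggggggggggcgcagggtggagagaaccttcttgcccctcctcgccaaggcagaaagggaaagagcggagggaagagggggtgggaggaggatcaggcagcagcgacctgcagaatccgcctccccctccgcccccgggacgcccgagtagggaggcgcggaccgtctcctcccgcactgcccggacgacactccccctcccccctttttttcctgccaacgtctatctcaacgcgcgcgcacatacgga
Tgfbr2: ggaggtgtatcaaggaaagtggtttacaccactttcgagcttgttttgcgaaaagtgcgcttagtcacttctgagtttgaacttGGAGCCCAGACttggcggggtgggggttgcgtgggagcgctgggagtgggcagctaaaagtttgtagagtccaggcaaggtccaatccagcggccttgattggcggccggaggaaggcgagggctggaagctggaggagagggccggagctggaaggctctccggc
Bmp4 had a GGAGCC match 32 bases before the start and Inhba had one at 27 bases, together with a TATAAA match 91 bases before the start. Tgfbr2 had GGAGCC and CAGAC side by side at 166 and 160 bases before the start, and Inhbb had none of the 4 letter strings. Promoters were at hand for 29 of the 45 pathway genes, of which 17 held GGAGCC, 14 CAGAC, 9 GGCGCC and 3 TATAAA. Of all 27025 genes with a RefSeq promoter, 28.6% held GGAGCC, 45.8% CAGAC, 10.8% GGCGCC and 14.3% TATAAA. Matches are a description of these windows and not of binding, and base composition was not matched.

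Receptor genes that passed were all higher in GFP: 2 of 6 type I genes and 2 of 4 type II genes, where 13.1% of all genes were called higher and 28.9% were called in either direction. Tgfbr2 (chromosome 9, 116084293 to 116175360), the type II receptor of TGF-beta, had 1370.3, 1144 and 1181 CPM in GFP and 899.7, 832 and 534 CPM in Tomato. The GFP libraries were all higher, and Tomato replicate 3 was the lowest (0.71 ± 0.19, adjusted p = 0.0268). Its partner Tgfbr1, the type I receptor of TGF-beta, had 193, 149 and 177 CPM in GFP and 130.03, 127 and 108 CPM in Tomato and was higher by a similar step (0.50 ± 0.12, adjusted p = 0.0162). Bmpr2, the type II receptor of BMPs, had 39.4, 48.6 and 42.4 CPM in GFP and 32.4, 33.5 and 27.6 CPM in Tomato (0.48 ± 0.12, adjusted p = 0.017). Acvr1, a type I receptor of BMPs and activins, had 57.0, 50.9 and 59.3 CPM in GFP and 42.6, 44.1 and 48.4 CPM in Tomato, a small difference without overlap (0.31 ± 0.10, adjusted p = 0.0441). Per length, Tgfbr2 made up 93.5 ± 0.506% of the type II receptor RPKM in GFP and 92.2 ± 0.653% in Tomato, while Bmpr2 stood at 2.42 ± 0.261 RPKM in GFP and 1.73 ± 0.174 RPKM in Tomato.

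Bmpr1a, the main type I receptor gene of BMPs here, had 188 ± 13.1 CPM in GFP and 187 ± 16.3 CPM in Tomato (0.01 ± 0.10, adjusted p = 0.969). Acvr1b, the type I receptor gene of activin, averaged 7.78 CPM in GFP and 7.05 CPM in Tomato (adjusted p = 0.409), and Bmpr1b and Acvr2b were below 3 CPM in every library. Acvrl1, a type I receptor gene of endothelium, had 95.4 ± 6.02 CPM in GFP and 72.4 ± 15.1 CPM in Tomato and did not pass (0.40 ± 0.15, adjusted p = 0.0742), nor did the activin receptor gene Acvr2a (0.48 ± 0.16, adjusted p = 0.0577). Blocked on replicate number, both passed as higher, with adjusted p = 0.015 for Acvrl1 and 0.0223 for Acvr2a, and both passed without Tomato replicate 1 (0.0215 and 0.0362). Both also passed with no filter on low counts (0.0497 and 0.0418), and Acvr2a passed by DESeq2 (0.0301) and with a single strand column (0.0417). In these libraries the 6 lymphatic endothelial markers tested and 7 of 12 blood and pan-endothelial markers were higher in GFP, Esam was lower, and Kdr, Tek, Vwf and Erg did not pass. The part of endothelial cells in the values of Bmpr2, Acvrl1 and Tgfbr2 was not tested.

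Tgfbr3, which encodes the co-receptor betaglycan, had 427, 333 and 296 CPM in GFP and 289.55, 253 and 159 CPM in Tomato. The fractions were adjacent without overlap, and the gene did not pass (0.59 ± 0.23, adjusted p = 0.089). It passed once blocked on replicate number (0.62, adjusted p = 0.00264), without Tomato replicate 1 (adjusted p = 0.0409) and by DESeq2 (0.0262). Bambi, the pseudoreceptor gene, had 34.1, 40.6 and 37.6 CPM in GFP and 45.7, 43.6 and 49.7 CPM in Tomato. It was lower in GFP by a small margin (-0.31 ± 0.10, adjusted p = 0.0489), a call lost without each of the 6 libraries in turn (adjusted p of up to 0.155, without GFP replicate 1), by limma-voom (0.0506), on a single strand column (0.0938) and with length and GC content corrected (0.0513, but 0.025 when blocked).

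Tgfbr1 was no longer called when GFP replicate 1 (0.0629), GFP replicate 3 (0.052) or Tomato replicate 2 (0.0514) was left out, and Tgfbr2 when any GFP library (up to 0.0942) or Tomato replicate 2 (0.0635) was left out. Bmpr2 lost its call without GFP replicate 2 (0.0554), with library size alone (0.0594) and once length and GC content were corrected for (0.17, adjusted p = 0.368, and 0.18 when blocked). The Acvr1 call needed GFP replicates 1 and 3 and Tomato replicates 1 and 2 (adjusted p = 0.116, 0.143, 0.108 and 0.14 when each was left out), and it was lost with library size alone (0.14, adjusted p = 0.373), upper quartile scaling (0.0515), no filter (0.0653), a single strand column (0.0867) or the length and GC correction (0.0578, but 0.0209 when blocked).

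Of 9 genes for secreted antagonists and ligand-binding proteins, 1 (11.1%) passed, where 28.9% of all genes did. Fstl1 (chromosome 16, 37776873 to 37836514), which encodes a secreted follistatin-like glycoprotein of mesenchymal cells, had 3773, 3726 and 3329.7 CPM in GFP and 2794, 2476 and 1926 CPM in Tomato. All GFP libraries were above all Tomato libraries (0.59 ± 0.16, adjusted p = 0.0262). Nbl1, a BMP antagonist of the DAN family, had 629, 668 and 593 CPM in GFP and 568, 536 and 399.8 CPM in Tomato. It was higher in each GFP library but did not pass (0.33 ± 0.14, adjusted p = 0.11), and passed when blocked on replicate number (0.34, adjusted p = 0.0295). Twsg1, which encodes a protein that binds BMPs together with chordin, had 383, 366 and 372 CPM in GFP and 449, 499 and 402 CPM in Tomato. It was the only antagonist gene with all GFP libraries below all Tomato libraries and did not pass (-0.27 ± 0.11, adjusted p = 0.088). Without Tomato replicate 3 it did (-0.35, adjusted p = 0.0315), as it did with library size alone (-0.43, adjusted p = 0.0152) and when blocked with the length and GC correction (-0.28, adjusted p = 0.0351).

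Fst, which encodes the activin trap follistatin, had 135 ± 9.73 CPM in GFP and 116 ± 5.91 CPM in Tomato (0.22 ± 0.09, adjusted p = 0.102). Fstl3, a related activin-binding protein gene, had 29.9 ± 5.77 CPM in GFP and 24.0 ± 3.72 CPM in Tomato (0.32 ± 0.16, adjusted p = 0.165). Blocked on replicate number, Fstl3 passed (0.31, adjusted p = 0.0174). Unblocked, with both strand columns summed, an alternative chosen after seeing the data, its log2 fold change was 0.27 (adjusted p = 0.253), and the blocked fit was not run on those sums. Chrd, which encodes the BMP antagonist chordin, had 22.3 ± 1.41 CPM in GFP and 17.5 ± 3.09 CPM in Tomato (0.35, adjusted p = 0.0919). With a single strand column Chrd passed as higher (0.40, adjusted p = 0.0358). Its relative Chrdl1 had 26.9 ± 4.61 CPM in GFP and 25.1 ± 10.5 CPM in Tomato. The classical antagonist genes Grem1 and Nog had few reads: Grem1 had 98 to 154 reads per library and Nog 24 to 52. Fstl1 was no longer called when GFP replicate 1 (0.088), GFP replicate 2 (0.0747) or Tomato replicate 2 (0.0852) was left out.

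Among the SMAD genes, the BMP branch gene Smad1, the common partner gene Smad4 and the inhibitory gene Smad7 were higher in GFP. Smad7, an inhibitor that TGF-beta itself induces, had 197, 172 and 152 CPM in GFP and 137, 113 and 99.6 CPM in Tomato. Its GFP libraries were all higher, and the log2 ratio within each replicate number was nearly the same, at 0.53, 0.60 and 0.61 (log2 fold change 0.58 ± 0.14, adjusted p = 0.0173). Smad4 had 146, 135 and 142 CPM in GFP and 125, 117 and 106 CPM in Tomato, a small difference without overlap (0.28 ± 0.09, adjusted p = 0.0475). Smad1 had 135, 127 and 124 CPM in GFP and 108, 108 and 99.9 CPM in Tomato, again without overlap (0.29 ± 0.08, adjusted p = 0.031). Smad2 averaged 49.4 ± 2.70 CPM in GFP and 46.2 ± 2.64 CPM in Tomato and Smad3 averaged 49.3 ± 2.27 CPM in GFP and 47.8 ± 2.92 CPM in Tomato, and neither passed (adjusted p = 0.426 for Smad2 and 0.725 for Smad3). Smad5 (0.25, adjusted p = 0.0849), Smad6, the BMP-selective inhibitor gene (-0.16, adjusted p = 0.315), and Smad9, below 1 CPM throughout, did not pass either.

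Smad7 was no longer called when GFP replicate 1 (0.0665), GFP replicate 2 (0.0525) or Tomato replicate 2 (0.0694) was left out. Smad4 and Smad1 were each still called without Tomato replicate 1 and with none of the 5 other single omissions (up to 0.138 for Smad4 and 0.103 for Smad1, both without GFP replicate 1). Scaling by library size alone ended both calls (0.12 and 0.12, adjusted p = 0.331 for Smad4 and 0.283 for Smad1), as did using no filter on low counts (0.0897 and 0.0723). Upper quartile scaling ended the Smad4 call (0.061), and the length and GC correction ended the Smad1 call (0.105, and 0.0741 when blocked).

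Target and feedback genes went both ways. Id1 (chromosome 2, 152736251 to 152737410), a direct BMP target that encodes an inhibitor of basic helix-loop-helix factors, had 10.7, 14.8 and 13.4 CPM in GFP and 23.7, 22.8 and 21.9 CPM in Tomato. It was lower in GFP without overlap (-0.82 ± 0.13, adjusted p = 0.00339), and leaving out any library gave adjusted p of up to 0.0177. Its relative Id2 had 105, 122 and 95.03 CPM in GFP and 144, 137 and 131 CPM in Tomato and was lower by less (-0.36 ± 0.11, adjusted p = 0.0367). Id3, the most abundant of the family, had 554, 584 and 514 CPM in GFP and 593, 558 and 564 CPM in Tomato. Its fractions overlapped and it did not pass (-0.05 ± 0.10, adjusted p = 0.699).

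Pmepa1 (chromosome 2, 173224458 to 173276533), which encodes a membrane protein that TGF-beta induces and that holds back SMAD2 and SMAD3, had 278, 332 and 369 CPM in GFP and 190.4, 201 and 206 CPM in Tomato. It was higher in GFP without overlap (0.71 ± 0.12, adjusted p = 0.0036), and leaving out any library gave adjusted p of up to 0.0224. Skil, which encodes the SMAD co-repressor SnoN, had 254 ± 53.3 CPM in GFP and 201 ± 19.2 CPM in Tomato and did not pass (0.34 ± 0.15, adjusted p = 0.123). Blocked on replicate number it did (0.32, adjusted p = 0.0208), but not once length and GC content were corrected in the same fit (0.14, adjusted p = 0.204). The Id2 call was lost after the length and GC correction (-0.15, adjusted p = 0.297, and 0.137 when blocked) and when GFP replicate 1 (0.113), GFP replicate 3 (0.124), Tomato replicate 1 (0.0632) or Tomato replicate 2 (0.104) was left out.

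**Figure D4:**
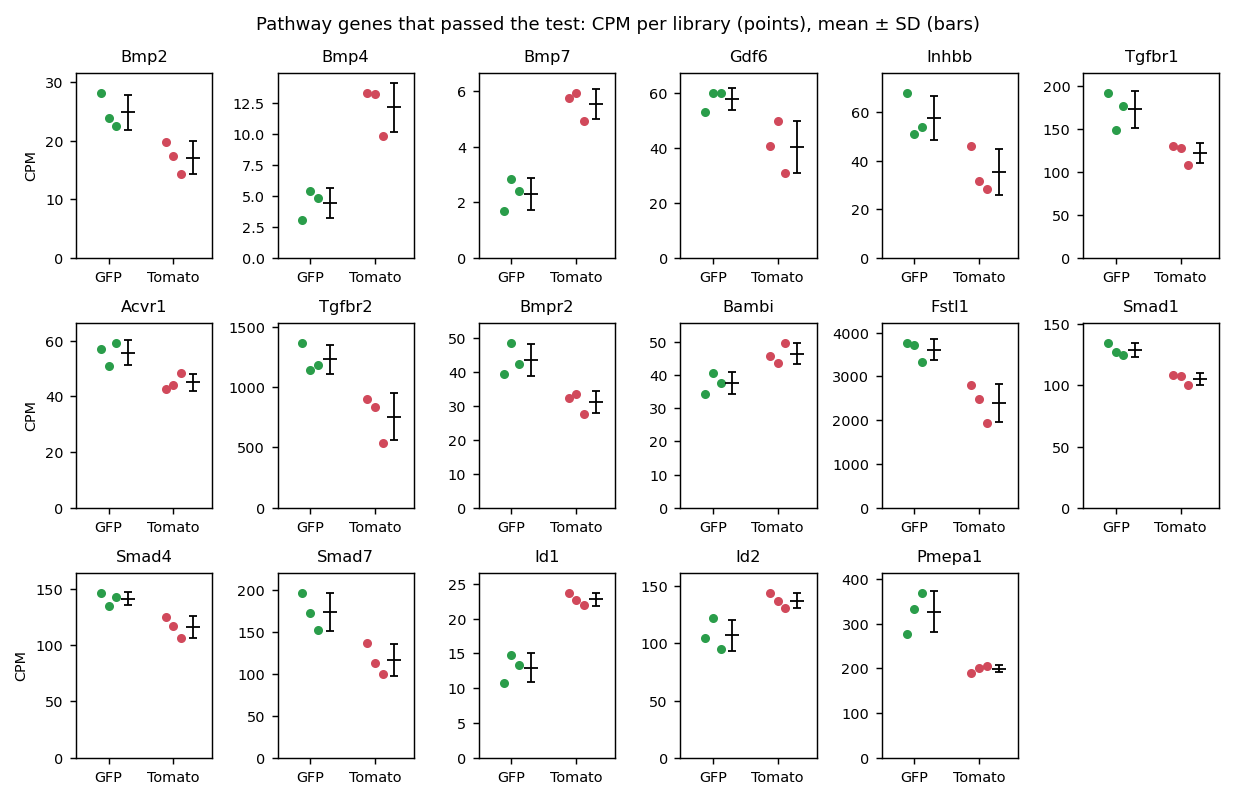
CPM in each library for the 17 pathway genes that passed the test, with 3 GFP and 3 Tomato points per gene in order of replicate number and black bars for mean ± SD. In none of the 17 panels do the GFP and Tomato points overlap, which choosing genes by the test favours. There was also no overlap for 10 pathway genes that did not pass. Of all genes tested, 23.4% had all GFP libraries above and 25.2% all GFP libraries below Tomato.

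**Figure D5:**
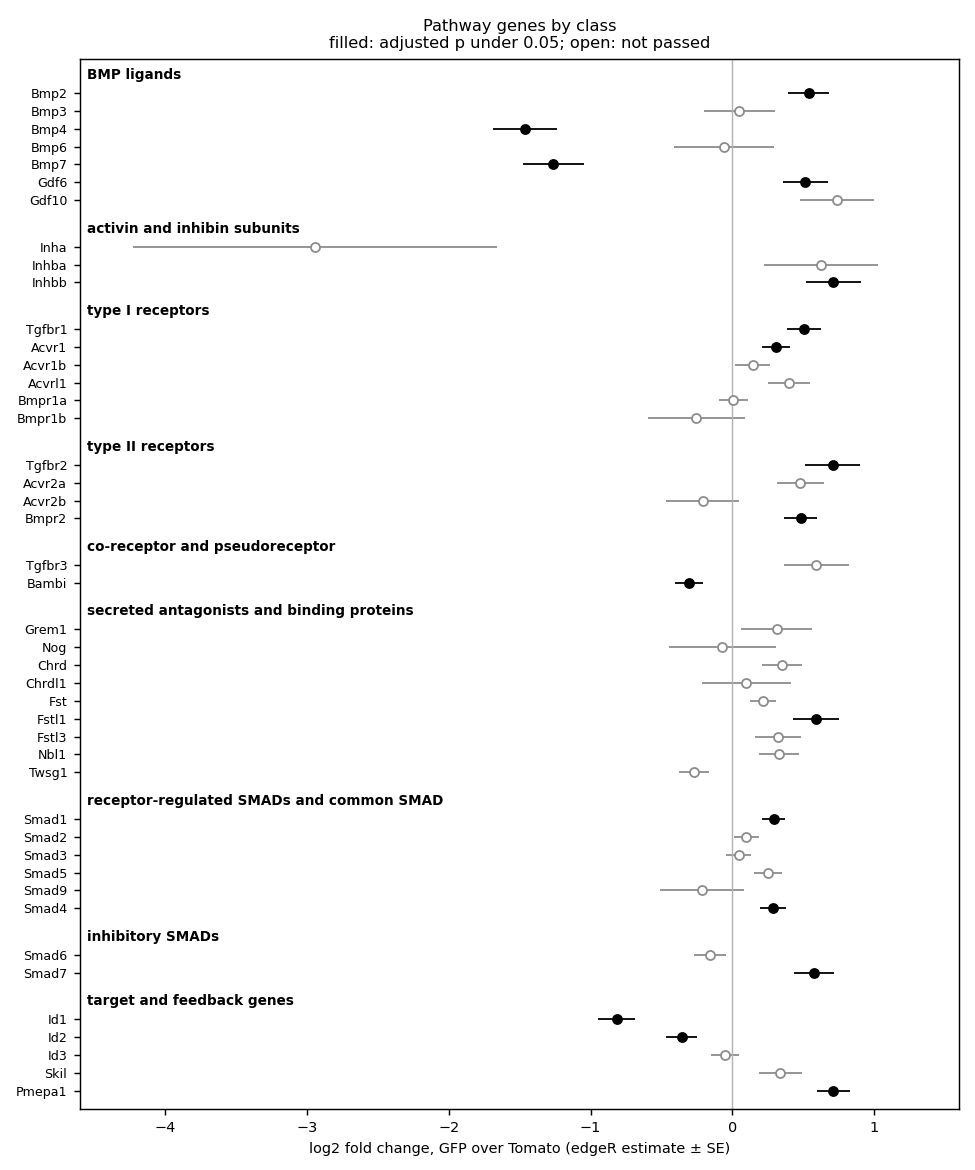
Log2 fold change (GFP over Tomato, ± SE) of the 44 pathway genes tested, by class, with filled points for adjusted p under 0.05. Bmp4, Bmp7 and Id1 lie farthest to the left among filled points, and the open point of Inha has the widest error.

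By class, the summed RPKM of type II receptors was 161 ± 15.0 in GFP and 99.9 ± 25.2 in Tomato, and that of type I receptors 92.0 ± 4.91 in GFP and 76.4 ± 7.23 in Tomato (SD, n = 3 each, no test). Antagonists and binding proteins summed to 1168 ± 64.7 RPKM in GFP and 865 ± 140 RPKM in Tomato, of which Fstl1 made up 62.9 ± 1.04% in GFP and 56.3 ± 1.53% in Tomato. Receptor-regulated and common SMADs summed to 79.1 ± 2.79 RPKM in GFP and 67.0 ± 4.20 RPKM in Tomato. The inhibitory SMADs summed to 44.4 ± 5.13 RPKM in GFP and 32.5 ± 4.32 RPKM in Tomato. Target and feedback genes summed to 455 ± 20.7 RPKM in GFP and 457 ± 13.8 RPKM in Tomato, with Id3 at more than the sum of the other members in each fraction.

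Beyond these genes, 71 further genes of the TGF-beta superfamily and its regulators were listed, of which 48 were tested, 15 were higher and 6 lower in GFP, together 43.8% of those tested against 28.9% of all genes. Their median log2 fold change was 0.20. By the smallest adjusted p the higher genes were led by Msx1, a homeobox gene and BMP target, with 37.5, 42.2 and 49.3 CPM in GFP and 24.3, 22.5 and 18.6 CPM in Tomato (0.98 ± 0.14, adjusted p = 0.00172). Runx2, the transcription factor gene of bone, had 13.0, 13.5 and 16.8 CPM in GFP and 7.91, 8.26 and 8.99 CPM in Tomato (0.78 ± 0.14, adjusted p = 0.00459). Gdf15, a stress-induced ligand gene, had 11.2, 11.1 and 10.9 CPM in GFP and 6.67, 6.28 and 4.53 CPM in Tomato (0.92 ± 0.16, adjusted p = 0.00467). Msx1 was thus higher in GFP while Id1, also known as a BMP target, was lower.

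The lower genes were led by Tdgf1, which encodes the Nodal co-receptor Cripto and had 1, 0 and 0 reads in GFP and 23, 12 and 21 reads in Tomato (adjusted p = 0.0021). Tdgf1, Gdf3, Bmp15 and Gata3 had at most 9 reads in each GFP library and passed the low-count filter only through Tomato. Being higher in Tomato was thus needed for them to be tested, and their calls are not independent of the filter. The 6 lower calls and the share of 43.8% include them. Tdgf1 has annotated pseudogene copies, so its counts are uncertain. Its ratio of summed counts per total count, GFP over Tomato, was 0.0178 (exact binomial 95% interval 0.000443 to 0.103, counting error only). Amhr2, a receptor gene of the gonads and of mesothelium, had 1.72, 1.64 and 1.63 CPM in GFP and 4.29, 6.02 and 12.1 CPM in Tomato (-2.16 ± 0.37, adjusted p = 0.00526). Gdf3 had 0.0808, 0.149 and 0.254 CPM in GFP and 0.653, 1.29 and 2.61 CPM in Tomato (-3.20 ± 0.62, adjusted p = 0.00751). In Tomato, replicate 3 was the highest for Amhr2 and Gdf3, as it was for Inha. Macrophage and mesothelial markers were lower in these GFP libraries too, and their part in the values of Tdgf1, Amhr2 and Gdf3 was not tested.

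Eng, which encodes the TGF-beta co-receptor endoglin of endothelium and fibroblasts and was chosen after its values were seen, had 177, 193 and 193 CPM in GFP and 94.7, 84.7 and 44.4 CPM in Tomato. It was higher in GFP without overlap (1.33 ± 0.26, adjusted p = 0.0105), with no leave-one-out fit ending the call. The call was lost with no filter on low counts (adjusted p = 0.0622). The endothelial markers, of which the lymphatic ones tested and 7 of the 12 others were higher in GFP and Esam was lower, stand beside this value, and their part in it was not tested.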

How the data were processed

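The sequenced RNA input was 150 ng per library (TruSeq kit), per the labels' protocols. The authors deposited gene-level raw counts in 3 columns, of which one ignores strand and the others keep the forward and reverse strands apart, per the file headers. Trim Galore 0.4.3, STAR 2.5.2b and build GRCm38 are named, without their roles, per the submitters' processing notes, while the annotation release is not given in the sources used here.

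Tests used the strand-blind column unless stated. Names, positions and merged exon lengths came from GENCODE M21 (49412 of 49671 genes matched, and the 259 others held 0.00762% of counts). GFP was compared with Tomato by edgeR 4.0.16 in R 4.3.3 (quasi-likelihood F test, two-sided, robust, TMM, filterByExpr, no block) on all genes. SE was the fold change divided by the square root of F. Pairing by replicate number was checked by correlating deviations from the group means between same-numbered libraries. The values were 0.487, 0.21 and 0.422, all above 0.1, while libraries of unequal number gave -0.46 to -0.0265. The replicate numbers were therefore taken as pairs, on the data alone, since no label says so. The blocked fits reuse those same counts, so the calls they added are not independent evidence. The pairs entered the blocked fits and the log2 ratios within each replicate number. The main test and its calls did not use them. Alternatives were DESeq2 1.42.0, limma-voom (limma 3.58.1), other scalings and filters, strand columns, the block, leaving out each library, and offsets for length and GC content from splines with 4 degrees of freedom. Intervals cover counting error only. Code was tested on simulated data.

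The genes, lists and tests were chosen with earlier results of these data known. Values in every library were to be given for pathway genes past the threshold and for the 10 highest in RPKM, and of the further genes the 3 higher and 3 lower with the smallest adjusted p were to be named. The per-library values of Gdf10, Bmp6, Inha and Inhba and the gene Eng were added after their values were seen. So were the marker genes named (Esam, Mcam, Abcc9, Notch3, Kcnj8, Krt8, Krt18, Sox9, Col1a1, Col1a2 and Col3a1). Ccl21a has a second annotated copy on a scaffold, and the copy on chromosome 4 was used.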

Additional observations from a re-analysis of the deposited data

How the results depend on the processing

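Among all genes, 1128 were higher and 3851 lower in GFP under scaling by library size alone, and 3137 were higher and 3256 lower when blocked on replicate number, against 2049 and 2456 in the unblocked test. Of the pathway genes 6 were higher with library size alone and 20 with the replicate block. After the length and GC correction 8 were higher, and 3 (Bmp4, Bmp7 and Id1) were lower. Of the 71 further genes, 2 were lower with a filter of 1 CPM in 3 libraries, which removes low genes such as Tdgf1, and 3 with a single strand column, which has fewer reads. The cause of the other shifts was not tested. Leaving out a library gave 833 to 2392 higher and 1380 to 2793 lower among all genes, 2 to 14 and 3 to 5 among the pathway genes, and 6 to 18 and 6 to 7 among the further genes. In these fits fewer samples enter. Over all alternatives and the 44 pathway genes tested, 682 fold changes stayed on the same side of the threshold, 76 lost a call, 31 gained one, and no call turned its direction. Genes below 1 CPM rest on few reads.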
